A study of Mus musculus with 6 samples.

Results

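CC chemokines are small secreted proteins that attract leukocytes, and 10 of their genes were followed through the adult mouse uterus: Ccl2, Ccl3, Ccl4, Ccl5, Ccl6, Ccl7, Ccl8, Ccl11, Ccl20 and Ccl28. They were chosen by name, and all 10 were present among the 24077 genes of the single-cell table and the 30828 genes of the spatial tables. The animals were CD-1 mice injected under the skin on neonatal days 1 to 5 with either the corn oil vehicle (CO) or the synthetic estrogen diethylstilbestrol (DES, 1 mg/kg/day), and every uterus was taken at 12 months of age. The single-cell data held 1 CO library pooled from 2 mice and 1 DES library pooled from 4 mice, so that the conditions had no replicate there. The spatial data held 2 CO sections and 2 DES sections, called A and B within each treatment, each from 1 mouse. The study chose these mice from more after a pathologist examined sections, looking for epithelium in both groups and adenocarcinoma in DES. Exposure, adenocarcinoma and the choice of tissue cannot be told apart in the sections. Control mice were taken in estrus, while DES-exposed mice remain in persistent estrus, and treatment and ovarian state cannot be told apart.

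There were 32387 CO cells (median 6779 unique molecular identifiers, UMIs) and 16312 DES cells (median 10153.5 UMIs). A cell type was deposited for 12253 CO cells and 9701 DES cells. Barcodes found in both libraries numbered 180, and without those cells the number of member and cell type pairs past the 2-fold mark used below stayed at 11. The sections held 1357 to 1834 spots and 9117099 to 12506177 UMIs each, and a spot covers several cells. Section CO B carries a tissue fold, and section DES B was of limited use to the study for naming its spot clusters. Levels are given as UMIs of a gene scaled to a fixed library total (CPM, with a denominator of 1000000 UMIs). The single-cell method counts each transcript once at its 3′ end, so that levels of different genes were compared without a length term. Brackets after a single-cell value give the exact Poisson 95% interval, which covers counting error only and not differences between mice.

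CC chemokines bind G protein-coupled receptors on leukocytes. Ccl2, Ccl7, Ccl8 and Ccl12 are monocyte attractants that use receptors such as Ccr2, and Ccl11 (eotaxin) attracts eosinophils through Ccr3. Ccl3 and Ccl4 are made by activated macrophages, and Ccl5 by T and NK cells. Ccl6 is a rodent chemokine of myeloid cells that uses Ccr1, Ccl20 draws Ccr6-bearing lymphocytes and dendritic cells to epithelia, and Ccl28 is an epithelial chemokine that draws Ccr10-bearing plasma cells to mucosal surfaces. In the cycling uterus, chemokines of the stroma and epithelium are known to change with estrogen and progesterone.

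Of the 10 genes, 8 lie in 2 groups on chromosome 11 (GRCm38). Ccl2 (82035571 to 82037453), Ccl7, Ccl11 and Ccl8 (ending at 82116799) lie on the plus strand within 81.2 kb. Ccl5 (starting at 83525778), Ccl6 (83587882 to 83593087) and Ccl3 on the minus strand and Ccl4 (ending at 83664683) on the plus strand lie within 138.9 kb, after a gap of 1409.0 kb. Ccl20 lies on chromosome 1 (83116766 to 83119167) and Ccl28 on chromosome 13 (119623819 to 119654359). Promoter windows, 250 bases before to 50 after the gene start, were in the RefSeq table (GRCm38.p6) for 5 members: Ccl3, Ccl6, Ccl8, Ccl20 and Ccl28. The windows of Ccl8, Ccl6 and Ccl28 are printed 5′ to 3′ because these genes, each with an entry in the table, were high in the CO stromal cells, the DES-Myeloid-Lyz2hi cells and the CO epithelium, respectively. Capitals mark matches to the motifs searched, which were TATAAA, AP-1 (TGANTCA), PU.1 (GAGGAAG) and an NF-kB consensus, each on both strands.
Ccl8, chr11:82114935-82115234, plus strand: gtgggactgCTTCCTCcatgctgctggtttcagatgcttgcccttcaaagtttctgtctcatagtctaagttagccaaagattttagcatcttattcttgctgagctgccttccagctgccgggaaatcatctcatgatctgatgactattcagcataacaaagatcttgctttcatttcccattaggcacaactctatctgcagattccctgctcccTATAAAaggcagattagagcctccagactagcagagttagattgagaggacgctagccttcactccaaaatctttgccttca
Ccl6, chr11:83593038-83593337, minus strand: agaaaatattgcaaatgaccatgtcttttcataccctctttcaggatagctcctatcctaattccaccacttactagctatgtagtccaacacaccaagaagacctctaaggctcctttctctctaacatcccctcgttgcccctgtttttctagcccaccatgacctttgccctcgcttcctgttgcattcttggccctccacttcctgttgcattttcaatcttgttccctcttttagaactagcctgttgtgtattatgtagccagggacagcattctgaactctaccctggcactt
Ccl28, chr13:119623569-119623868, plus strand: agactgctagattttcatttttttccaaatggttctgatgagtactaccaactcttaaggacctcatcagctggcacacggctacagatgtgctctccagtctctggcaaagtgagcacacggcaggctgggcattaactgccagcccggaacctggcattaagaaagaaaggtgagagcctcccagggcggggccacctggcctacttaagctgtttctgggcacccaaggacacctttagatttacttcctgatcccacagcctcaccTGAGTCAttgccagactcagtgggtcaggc
The Ccl8 window held TATAAA at base -32 and PU.1 on the opposite strand at -241, motifs held by 13.6% and 13.6% of 32851 promoters. Ccl28 held AP-1 at base 21 after the start, a motif in 7.81% of promoters. Ccl6 and Ccl3 held no match, and Ccl20 held the NF-kB consensus (5.81% of promoters) at -80 and PU.1 at -238, both on the opposite strand.

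The members differed, with overlap, in the cells that carried them. In the CO library, members at 100 CPM or more were Ccl11, Ccl7, Ccl8 and Ccl2 in stromal cells, Ccl11 in pericytes, Ccl4, Ccl3, Ccl8, Ccl7, Ccl6, Ccl2 and Ccl5 in Myeloid cells, and Ccl5, Ccl6 and Ccl4 in the cells named Lymphocytes. Ccl28 reached 100 CPM in no cell type and was highest in the epithelium, at 58.2 CPM. The first group on chromosome 11 held every member over 100 CPM in stromal cells. These groupings describe the levels, and no test was made of them.

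**Figure D1:**
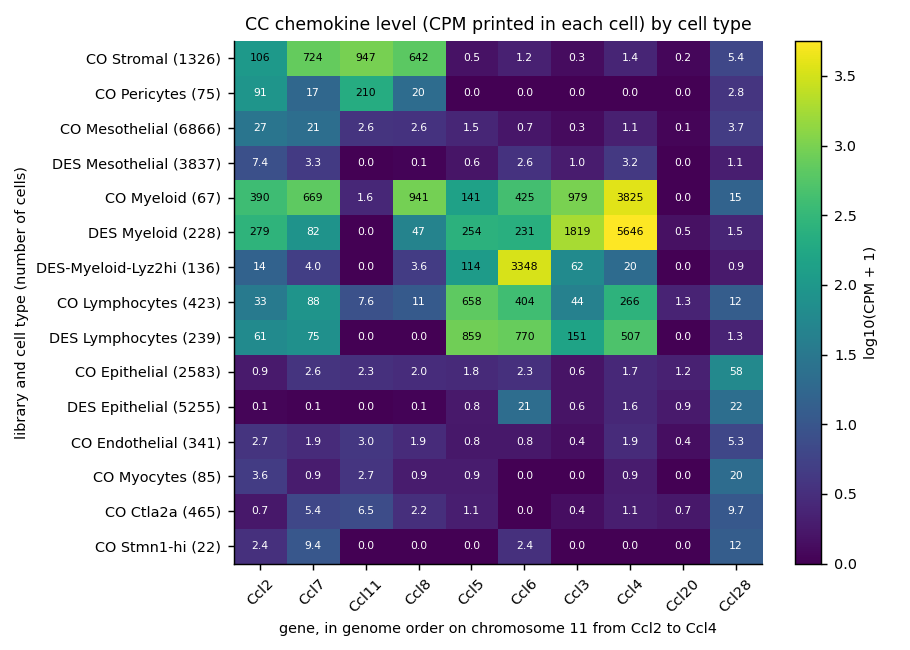
CPM of each member (columns) in each library and cell type of at least 20 cells (rows, number of cells in brackets), coloured by log10(CPM + 1). CO Stromal cells are highest for Ccl11 and, with CO Myeloid cells at a level whose interval overlaps, for Ccl7, CO Myeloid cells for Ccl8 and Ccl2, DES Myeloid cells for Ccl3 and Ccl4, DES-Myeloid-Lyz2hi cells for Ccl6 at 3348 CPM, and the epithelial rows for Ccl28.

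Ccl11 was the highest member in CO Stromal cells, at 947 CPM [930 to 965] over 1326 cells. Ccl7 followed at 724 CPM [709 to 740], Ccl8 at 642 CPM [628 to 657] and Ccl2 at 106 CPM [100.1 to 112], and none of these intervals overlapped. With each cell thinned to 3000 UMIs, Ccl11 was found in 78.3% of 1303 stromal cells, Ccl8 in 52.3%, Ccl7 in 39.4% and Ccl2 in 8.29% (unthinned shares 88.4%, 68.6%, 54.8% and 12.3%). In CO Epithelial cells, with a median of 23458 UMIs against 8726 in stromal cells, the thinned share was 0.586% for Ccl11, 0.586% for Ccl8 and 0.742% for Ccl7. Ccl11 thus marked most stromal cells, whereas Ccl2 marked few of them. Stromal cells with a Ccl7 UMI held Ccl2 in 18.7% of 514 cells, compared with 1.52% of the 789 cells without one. Pericytes, the contractile cells of small vessels, carried Ccl11 at 210 CPM [165 to 264] and Ccl2 at 90.8 CPM [62.1 to 128] in 75 CO cells, although 5 cells held 70.3% of the Ccl11 UMIs and 4 cells all of the Ccl2 UMIs.

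The DES library held 1 cell named Stromal and no Pericytes, so the stromal ligands could not be compared between conditions in single cells. That library held 3 Ccl11 UMIs in all. The 1 DES cell named Stromal held 46 Ccl2 and 42 Ccl7 UMIs and none of Ccl11 or Ccl8.

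Cells named Mesothelial, after the layer that lines the outer surface of the uterus, carried Ccl2 and Ccl7 at low levels. Summed mesothelial markers of this class were 2343 CPM in CO and 2486 CPM in DES. Summed stromal markers were 21126 and 21755 CPM, above the 12687 CPM of CO Stromal cells, and their part was not tested. Ccl2 was 27.4 CPM in 6866 CO cells and 7.35 CPM in 3837 DES cells, which was 3.73-fold [3.38 to 4.13] higher in CO. Ccl7 was 21.4 and 3.34 CPM, 6.40-fold [5.55 to 7.40] higher in CO. Both members counted in this type, at 5 CPM or more in either library, were at least 2-fold lower in DES, as were 2.79% of the 10570 genes counted, and 2.32% were at least 2-fold higher. Mesothelial cells with a Ccl2 UMI held Ccl7 in 30.2% of 275 thinned CO cells and 19.5% of 41 DES cells, compared with 2.44% and 0.321% of cells without one.

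Ccl4 and Ccl3 were the highest members in cells named Myeloid, although in CO the Ccl3 interval overlapped that of Ccl8, at 941 CPM [866 to 1021]. Summed macrophage markers (C1qa, Csf1r and others) of these cells stood at 11037 CPM in CO and 20216 CPM in DES. Ccl4 was 3825 CPM [3672 to 3983] in 67 CO cells and 5646 CPM [5543 to 5750] in 228 DES cells. Ccl3 was 979 CPM [902 to 1060] in CO and 1819 CPM [1761 to 1879] in DES, a ratio of 1.86 [1.71 to 2.03], below the 2-fold mark used here. The intervals of the thinned shares overlapped between the libraries, at 85.1% [74.3 to 92.6] and 83.5% [77.9 to 88.2] for Ccl4 and 68.7% [56.2 to 79.4] and 73.9% [67.5 to 79.6] for Ccl3. The pair was found together: Ccl4 was seen in 97.8% of 46 CO cells with Ccl3 and in 57.1% of 21 without it, and in 94.4% of 161 and 52.6% of 57 DES cells.

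Ccl8, Ccl28 and Ccl7 were lower in DES than in CO Myeloid cells. Ccl8 was 941 CPM in CO and 46.6 CPM in DES, 20.2-fold [16.2 to 25.4] higher in CO, and its thinned share was 26.9% against 5.50%. Ccl7 was 669 CPM in CO and 82.4 CPM in DES, 8.12-fold [6.77 to 9.77] higher in CO, with thinned shares of 43.3% and 6.42%. Ccl28 was 14.6 and 1.47 CPM, 9.93-fold [2.48 to 57.0] higher in CO, from 9 and 3 UMIs, and summed epithelial markers in these cells were 852 CPM in CO and 225 CPM in DES, whose part was not tested. Ccl8 was unevenly spread, as 5 of the 67 CO cells held 62.8% of its UMIs. Ccl2 (390 and 279 CPM) and Ccl6 (425 and 231 CPM) differed by less than 2-fold. For Ccl6 this turned on 1 of the 228 DES cells, which held 144 of its 471 UMIs, since without the highest cell of each library it was 377 and 163 CPM, 2.31-fold higher in CO. Of the 8 members counted, 3 were at least 2-fold lower in DES (Ccl7, Ccl8 and Ccl28) and 0 higher, while 25.1% of the 10326 genes counted in Myeloid cells were at least 2-fold lower and 5.46% higher. Summed stromal markers moved with Ccl7 and Ccl8 and were 4950 CPM in CO Myeloid cells and 260 CPM in DES Myeloid cells, with 5 of 6 detected in each. This list was also high outside stroma and summed to 21126 CPM in CO Mesothelial and 12687 CPM in CO Stromal cells, and mesothelial markers were 498 and 43.6 CPM in CO and DES Myeloid cells. Their part in the Ccl7 and Ccl8 values was not tested. Ccl11, the highest member of stromal cells, was at 1 UMI in CO Myeloid cells and 0 in DES. In CO Epithelial cells Ccl7, Ccl8 and Ccl11 stood at 2.61, 1.98 and 2.30 CPM, and in DES Epithelial cells at 0.0511, 0.0738 and 0.0114 CPM. Within CO Myeloid cells, Ccl8 was found in 48.3% of 29 cells with Ccl7 and in 10.5% of 38 without it, and Ccl7 in 75% of 24 cells with Ccl2 and 25.6% of 43 without.

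Ccl6 reached its highest level in the 136 cells named DES-Myeloid-Lyz2hi, a class of the DES library alone. It stood at 3348 CPM [3272 to 3424] there and in 84.7% of 131 thinned cells, with the lysozyme gene Lyz2 at 31833 CPM. Ccl3 was 61.9 CPM and Ccl4 19.8 CPM in these cells, well under their Myeloid levels. Summed macrophage markers were 1452 CPM and summed monocyte markers, which include Lyz2, 32664 CPM.

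The class named Lymphocytes also held markers that go against that name. Summed neutrophil markers were 2119 CPM in CO and 6600 CPM in DES, and monocyte markers 4835 and 11509 CPM. Plasma cell markers, of the B lymphocyte line, were 45127 and 4222 CPM. Ccl5 was 658 CPM in 423 CO cells and 859 CPM in 239 DES cells, Ccl6 404 and 770 CPM, Ccl4 266 and 507 CPM and Ccl3 43.6 and 151 CPM. Of 9 members counted, Ccl3 was at least 2-fold higher in DES, at 3.47-fold [2.72 to 4.44], and Ccl8, Ccl11 and Ccl28 were at least 2-fold lower, against 7.77% and 6.86% of the 10370 genes counted. The Ccl3 value rested on few cells, as 5 of the 239 DES cells held 81.8% of its 225 UMIs. So did that of Ccl4, as 1 DES cell held 42.5% of its UMIs, and without the highest cell of each library Ccl4 was 229 and 292 CPM. Ccl8 and Ccl11 were at 0 in DES, against 24 and 17 UMIs in CO, which bounds them as at least 5.30-fold and at least 3.75-fold lower when 3 UMIs are set in DES. These bounds rest on single cells, since 1 CO cell held 21 of the Ccl8 and 1 held 10 of the Ccl11 UMIs. Ccl28 was at 26 UMIs in CO and 2 in DES, and summed epithelial markers in these cells were 984 and 434 CPM, whose part was not tested. Ccl7 in DES rested on 112 UMIs in 2 cells.

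A split of these cells, chosen after the values were seen, separated Ccl5 from Ccl6. Cells with at least 2 UMIs of T and NK markers and under 5 of phagocyte markers (164 CO, 75 DES) carried Ccl5 at 1977 and 3242 CPM and Ccl6 at 30.8 CPM in CO and 0 UMIs in DES. Cells with the reverse pattern (147 CO, 121 DES) carried Ccl6 at 1210 and 1326 CPM and Ccl5 at 31.2 and 3.56 CPM. Ccl4 was found in both, at 355 and 122 CPM in the first set and 275 and 685 CPM in the second. Of the second set, 1 CO cell held 78 of 194 Ccl4 UMIs and 1 DES cell 321 of 577. Without these cells the levels were 166 CPM in CO and 305 CPM in DES. In the same set 1 CO cell held 16 of 22 Ccl5 UMIs, and without it the level was 8.64 CPM. Ccl5 in Myeloid cells, at 141 and 254 CPM, rested on few cells: 5 CO cells held all of its UMIs, and 1 DES cell held 336 of 518. In DES-Myeloid-Lyz2hi cells, at 114 CPM, 1 cell held 248 of 253 Ccl5 UMIs.

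Ccl28 was the highest member in CO epithelium, and in DES non-basal epithelium it stood beside Ccl6, at 22.7 and 22.3 CPM. It stood at 58.2 CPM [56.5 to 59.9] in 2583 CO cells and 22.7 CPM in the 4608 DES cells outside the basal clusters, 2.56-fold [2.45 to 2.67] higher in CO, with thinned shares of 13.6% of 2562 and 5.86% of 4559 cells. The epithelium held 50.7% of all Ccl28 UMIs of the CO library and 88.3% of those of the DES library, while cells without a deposited type held 44.1% and 9.95%, so that the shares also depend on how many cells were typed. Of the 2 members counted in this comparison Ccl28 was lower and Ccl6 higher in DES, where 8.16% of the 10119 genes counted were at least 2-fold lower and 9% higher.

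Within the epithelium the CO and DES cells had been clustered separately by the authors, into 15 and 16 clusters, and the differences between clusters are descriptions. Ccl28 was highest in CO cluster 11, at 219.5 CPM [204.7 to 234.9] and in 46.4% of 97 thinned cells, and next in CO cluster 10, at 128.5 CPM [115.5 to 142.6] and 38.1%. It was low in CO clusters 3 (12.3 CPM) and 8 (11.9 CPM), which the study named as developing gland, and 39.3 CPM [27.4 to 54.7] in CO cluster 13. The median over CO clusters was 49.2 CPM. In DES the highest value was 83.0 CPM [72.7 to 94.3] in cluster 15, the lowest 5.36 CPM in cluster 14 and the median 20.6 CPM. No DES cluster reached the level of CO clusters 10 or 11.

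**Figure D2:**
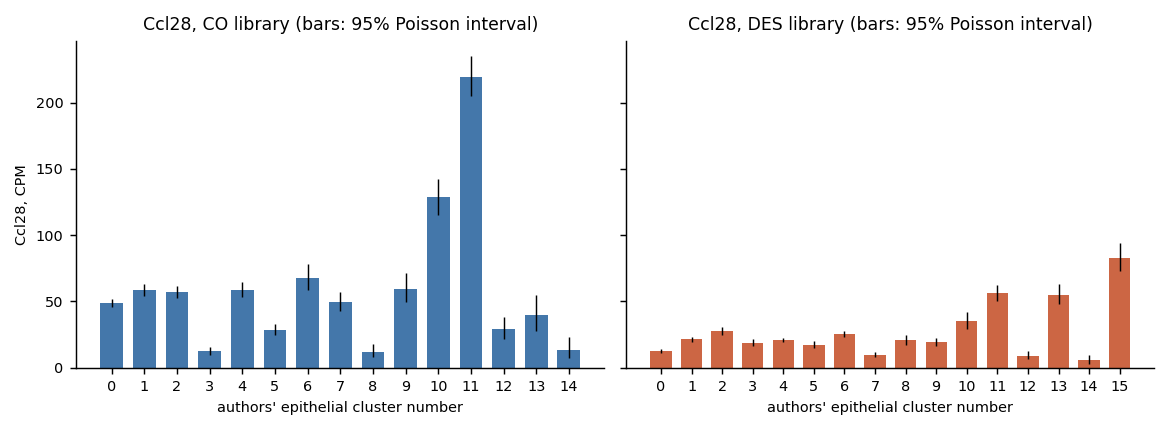
Ccl28 in CPM with exact Poisson 95% intervals (counting error only) in each epithelial cluster of the CO and the DES library, which were clustered separately. CO clusters 11 and 10 are highest at 219.5 and 128.5 CPM, and the highest DES cluster is 15 at 83.0 CPM.

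Ccl20 was rare. CO cluster 3 held it at 11.7 CPM, from 57 UMIs in 8 of 204 cells, and DES epithelial cells outside the basal clusters held 8 UMIs. DES cells without a deposited type held 104 UMIs of Ccl20, at 2.46 CPM. The basal cells of the DES library in integrated cluster 8 held it at 21.6 CPM [18.3 to 25.4], from 146 UMIs in 12 of 351 cells, of which 62 were in 1 cell. Single cells also set other values: in CO cluster 12, 30 of 31 Ccl3 UMIs and 52 of 53 Ccl4 UMIs were in 1 cell, and in CO cluster 9 the 62 Ccl5 UMIs were in 4 cells.

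Ccl6 stood apart in 1 DES epithelial cluster. Over all non-basal epithelium it was 2.26 CPM in CO and 22.3 CPM in DES, 9.86-fold [8.48 to 11.5] higher in DES. DES cluster 5, the cells that the study proposed as cancer cells, held it at 330 CPM [318 to 342] over 295 cells, compared with 4.67 CPM [4.34 to 5.03] in the 4313 cells of the other DES clusters, a ratio of 70.6. The other DES clusters ran from 1.24 to 8.79 CPM, and the CO clusters from 0 to 16.8 CPM. DES Mesothelial cells, which are not a known source, held 2.55 CPM. Summed basal cell markers also differed between these epithelial clusters. They were at most 2.052 CPM in the CO clusters and ran from 10.69 to 662.2 CPM in the DES clusters, with the highest sum in cluster 5. DES cluster 14, next at 394.8 CPM, held the lowest Ccl6 of the DES clusters. The part of basal cell markers in the Ccl6 values was not tested.

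**Figure D3:**
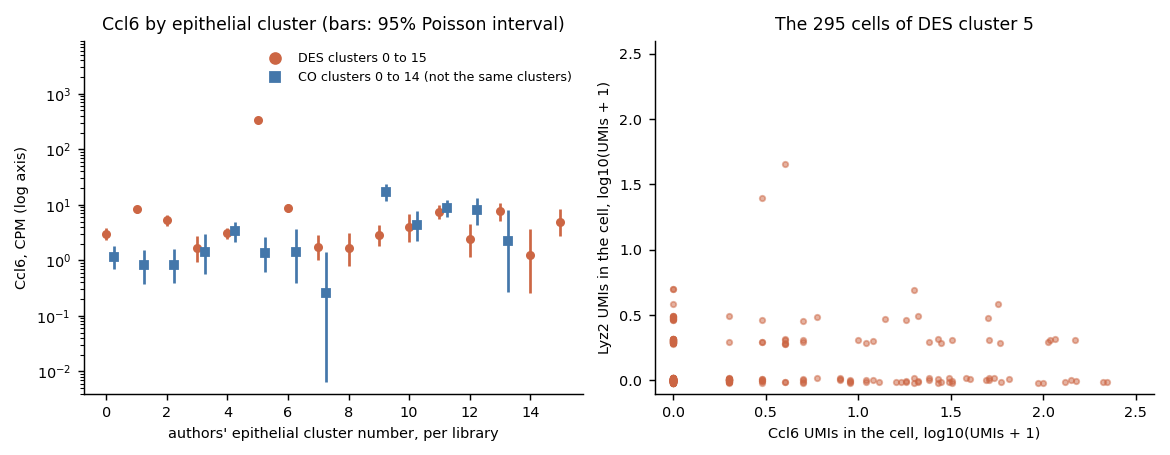
Ccl6 in CPM with exact Poisson 95% intervals (counting error only) by epithelial cluster of each library, beside the Ccl6 and Lyz2 UMIs of each of the 295 cells of DES cluster 5 as log10(UMIs + 1). The CPM axis is logarithmic, so CO clusters 8 and 14, without a Ccl6 UMI, are not drawn. DES cluster 5 stands at 330 CPM while no other DES cluster passes 8.79 CPM, and most cells high in Ccl6 hold few Lyz2 UMIs.

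The Ccl6 of cluster 5 was unevenly spread over its cells. Of the 295 cells, 117 held at least 1 UMI and 64 at least 5, the highest held 219, and the 10 highest held 48.6% of the UMIs. After thinning, 23.8% [19.0 to 29.1] of 290 cells held a Ccl6 UMI. In the 185 cells with no UMI of C1qa, C1qb, C1qc, Csf1r, Adgre1 or Lyz2, Ccl6 was 358 CPM [341 to 375] and 40% of cells held it, close to the cluster as a whole. Per Lyz2 UMI, cluster 5 held 15.8 Ccl6 UMIs, whereas DES-Myeloid-Lyz2hi cells held 0.105, DES Myeloid cells 0.0293 and the other DES epithelial clusters 0.372.

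Cells of cluster 5 with at least 5 Ccl6 UMIs were set beside the 178 cells with none, over the 1464 genes at 100 CPM or more, as a description with no test. The epithelial genes Epcam (857 and 789 CPM), Krt8 (1077 and 1084 CPM), Krt18 (1216 and 930 CPM) and Cdh1 (233 and 208 CPM) differed by at most 1.31-fold. Wfdc18, a whey acidic protein family gene, was 1149 and 22.0 CPM, Rad51b 1648 and 137 CPM, Tff1, a trefoil factor of mucosal surfaces, 538 and 58.4 CPM, and Olfm4 1556 and 361 CPM. The androgen-regulated gene Kap ran the other way, at 18.6 and 254 CPM. Macrophage markers C1qa (2.39 and 2.26 CPM) and Csf1r (0.955 and 1.51 CPM) were low in both.

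The genes most like each member across 14 library and cell type pairs of at least 50 cells were taken by Pearson correlation of log levels over 10155 genes. These pairs share 2 libraries, so the values describe and carry no p. Ccl6 was most like Lyz2 (0.98), Mpeg1 (0.96) and Hcst (0.96). Ccl3 was most like Adgre1 (0.99), Ccl4 like Cx3cr1 (0.99) and Ccl5 like Cd37 (0.99). Ccl7 was most like its neighbours Ccl2 (0.87) and Ccl8 (0.83). The gene most like Ccl2 was Ifi27l2a (0.88), that most like Ccl8 was Clip2 (0.89) and that most like Ccl11 was RP23-293I3.6 (0.96). Ccl28 was most like Tmprss11g (0.95), Fut2 (0.94) and Add2 (0.93).

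In the sections, the comparison of DES with CO had replicates. The p-values here rest on the spread between single mice and on variance estimates shared across genes. Of the 10 members, Ccl6 and Ccl3 rose in whole sections. Ccl6 was 17.4 and 43.5 CPM in CO (sections A and B in this order throughout) and 215 and 265 CPM in DES, so both DES sections were above both CO sections. Its log2 fold change was 2.78 ± 0.47 (SE, n = 2 against 2, edgeR quasi-likelihood test, Benjamini-Hochberg adjusted p = 0.0438). Ccl3 was 0.800 and 0.906 CPM in CO and 9.76 and 5.67 CPM in DES, a log2 fold change of 2.95 ± 0.44 (edgeR adjusted p = 0.0351). These levels came from few counts, with 10 UMIs in each CO section and 89 and 56 UMIs in DES. Markers of other cells also differed between these sections. All 5 smooth muscle markers fell (sums of 13345 and 14168 CPM in CO and 3077 and 3458 CPM in DES), as did 2 of 6 stromal markers (2915 and 2931 against 1359 and 968 CPM). Of the pericyte markers Rgs5 and Kcnj8 fell and Notch3 rose, and of the mesothelial ones Upk3b rose. Basal cell markers summed to 3.36 and 160 CPM in CO and 9526 and 5644 CPM in DES, where edgeR's adjusted test called 0 of 3 although all 3 had an unadjusted p under 0.05 and DESeq2 called 3. No neutrophil or monocyte marker passed the edgeR adjusted threshold, although 2 and 4 had an unadjusted p under 0.05 and DESeq2 called 2 and 4. Of those 4 monocyte markers, Lyz2 (121 and 321 CPM in CO, 1500 and 738 CPM in DES, edgeR adjusted p = 0.107), Cd14 and Fcgr3 were higher in DES and Plac8 lower (1009 and 796 CPM in CO, 208 and 438 CPM in DES, edgeR adjusted p = 0.0973), and the list summed to 1387 and 1330 CPM in CO and 2251 and 1777 CPM in DES. Of other leukocyte markers, Itgax (3.28 and 3.35 CPM in CO, 51.0 and 22.6 CPM in DES), Cd79a, Ighm and Kit rose, and Gzmb, Ncr1, Cma1 and Mcpt4 fell by edgeR's adjusted test, which called 0 of 9 macrophage and 0 of 5 T cell markers, although 1 and 4 had an unadjusted p under 0.05 and DESeq2 called 1 and 4. The monocyte list also summed to 1803 CPM in CO and 552 CPM in DES Epithelial cells of the single-cell libraries. Neutrophil markers summed to 16.7 and 16.4 CPM in CO and 281 and 28.3 CPM in DES. Their part in the Ccl6 and Ccl3 values was not tested. The 2 called compare with a background in which, among all 14098 genes tested, 2.67% were higher in DES and 2.63% lower. Both calls were lost when either DES section was left out. For Ccl6 the log2 fold change was 2.95 without DES A (edgeR adjusted p = 0.126) and 2.58 without DES B (edgeR adjusted p = 0.162), and for Ccl3 it was 2.53 (edgeR adjusted p = 0.252) and 3.25 (edgeR adjusted p = 0.140). Those fits called 14 and 3 genes in all. The Ccl6 change was 2.28 without CO A and 3.55 without CO B. The edgeR adjusted p was 0.0595 for Ccl6 with no filter on low counts and 0.0542 for Ccl3 with a block by section letter. In spots, more cells of a type and more RNA per cell cannot be told apart, and an exact permutation test of 2 against 2 sections cannot give a two-sided p below 0.333.

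**Figure D4:**
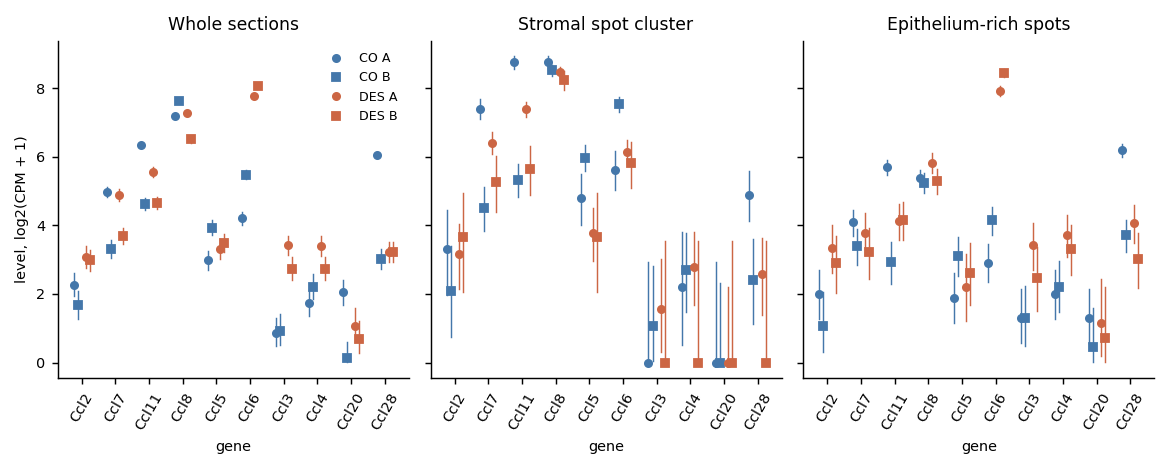
Level of each member as log2(CPM + 1) in whole sections, stromal spots and epithelium-rich spots, with 1 point for each of the 4 sections and bars for the exact Poisson 95% interval (counting error only). Both DES sections lie above both CO sections for Ccl6 and Ccl3 in whole sections, while Ccl28 is high in CO A alone.

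The other 8 members did not pass the test in whole sections. Ccl2 was 3.84 and 2.18 CPM in CO and 7.46 and 6.88 CPM in DES (1.03 ± 0.39, edgeR adjusted p = 0.20), and Ccl4 2.32 and 3.63 against 9.54 and 5.67 CPM (edgeR adjusted p = 0.179). In both, the sections did not overlap. Without CO A, Ccl2 passed at 1.53 (edgeR adjusted p = 0.0432), and without CO B it was 0.67 (edgeR adjusted p = 0.184). Ccl28 was 65.4 CPM in section A and 7.16 CPM in section B of CO, against 8.34 and 8.40 CPM in DES, a log2 fold change of -2.34 ± 1.02 (edgeR adjusted p = 0.247). Only CO A stood apart for Ccl28: without it the log2 fold change was 0.04, and without CO B it was -3.20 (edgeR adjusted p = 0.00286). Ccl11 (80.7, 23.5, 46.2 and 24.3 CPM) and Ccl7 (30.2, 8.97, 28.6 and 11.9 CPM) were higher in section A than in B of each treatment. Ccl8 was the most abundant member of the CO sections, at 144 and 196 CPM, and stood at 155 and 89.8 CPM in DES (-0.69, edgeR adjusted p = 0.248). Ccl5 was 6.88, 14.2, 8.99 and 10.2 CPM, and Ccl20 was 3.12 CPM in CO A and 0.0906 to 1.10 CPM in the other sections.

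Stromal spots, the clusters that the study named stroma, gave no member past the test among 5 tested. Ccl2, Ccl3, Ccl4, Ccl20 and Ccl28 were removed by the filter on low counts and were not tested there. At an unadjusted p under 0.05 there was 1 member by edgeR, Ccl5, and DESeq2 called 0, while 0.796% of the 8914 genes tested were higher in DES by edgeR and 0.673% lower. Ccl11, the highest member in the CO Stromal single cells, was 430 and 39.0 CPM in CO and 166 and 49.1 CPM in DES. Ccl8 was 430, 365, 354 and 297 CPM (-0.33, edgeR adjusted p = 0.715) and Ccl7 168, 21.7, 83.7 and 37.5 CPM. The stromal ligands were thus present in the DES tissue, although the DES library held 1 stromal cell. Ccl5 was 26.9 and 61.8 CPM in CO and 12.8 and 11.6 CPM in DES (-1.95 ± 0.53, edgeR adjusted p = 0.132). It passed without CO A, at -2.42 (edgeR adjusted p = 0.0108), and with no filter on low counts, at -1.97 (edgeR adjusted p = 0.00896), but was -1.17 (edgeR adjusted p = 0.502) without CO B. The NK markers Gzma and Gzmb fell in the same spots, and their part in the Ccl5 values was not tested. DES B held 346412 UMIs in these spots, and the other sections 558480 to 1015381. Acta2, Krt14, Krt5 and Ighg2c rose in the DES stromal spots by edgeR's adjusted test. Smooth muscle markers summed to 888 and 700 CPM in CO and 2705 and 8369 CPM in DES. Basal cell markers summed to 0 and 90.0 against 7058 and 1998 CPM, and plasma cell markers to 240 and 3923 against 10178 and 41494 CPM. The part of these markers in the member values of stromal spots was not tested. Ccl6 was 48.4, 183, 69.9 and 54.9 CPM there, so its highest stromal value was in CO B. Without CO A its change was -1.62 (edgeR adjusted p = 0.0201) and without CO B 0.35.

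In epithelium-rich spots, the 15% of spots in each section with the highest epithelial score (204 to 275 spots), Ccl6 rose. It was 6.51 and 16.8 CPM in CO and 242 and 347 CPM in DES, a log2 fold change of 4.37 ± 0.47 (edgeR adjusted p = 0.0111). Ccl3 and Ccl20 were removed by the filter on low counts and were not tested. Ccl3 was 1.48 and 1.458 CPM in CO and 9.685 and 4.494 CPM in DES in these spots. Ccl6 was the 1 member called of 8 tested, where 4.86% of the 11161 genes tested were higher in DES and 2.96% lower. Without DES B the change was 4.07 and the edgeR adjusted p 0.0635, and it was 3.84 without CO A and 5.16 without CO B. Ccl28 was 71.6, 12.0, 15.7 and 7.06 CPM (-2.21, edgeR adjusted p = 0.190). It was -0.36 (edgeR adjusted p = 0.650) without CO A and passed without CO B, at -2.97 (edgeR adjusted p = 0.00355). Ccl11 was 1.03 without CO A and passed without CO B, at -1.95 (edgeR adjusted p = 0.00374).

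Markers of other cells moved with Ccl6 in these spots. Of 9 macrophage markers tested, 4 rose (C1qa, C1qb, C1qc and Csf1r), and the list summed to 191 and 274 CPM in CO and 680 and 625 CPM in DES. Of 3 neutrophil markers tested 2 rose, with sums of 5.03 and 6.20 CPM in CO and 343 and 52.7 CPM in DES. The 5 monocyte markers were mixed: Lyz2 (31.7 and 78.4 CPM in CO, 1261 and 435 CPM in DES, edgeR adjusted p = 0.0314) and Fcgr3 rose, Plac8 fell (1165 and 1024 CPM in CO, 295 and 426 CPM in DES, edgeR adjusted p = 0.0181), and the list summed to 1567 and 1395 CPM in CO and 2212 and 1612 CPM in DES. The monocyte list does not single out monocytes, as it summed to 1803 CPM in CO and 552 CPM in DES Epithelial cells. Lyz2 itself was 4.89 CPM in the CO epithelial clusters. Of the other lists, Itgax, Kit, Ighm, Ighg2c, Acta2, Des, Notch3 and Upk3b rose and Dcn and Rgs5 fell by the edgeR adjusted test. Summed basal cell markers were 5.03 and 163 CPM in CO and 9393 and 6797 CPM in DES, while epithelial markers ran from 3757 to 5422 CPM over the 4 sections. The part of these cells in the Ccl6 values was not tested.

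The DES change of Ccl6 was greater in epithelium-rich than in stromal spots, in a test of that difference added after the data were seen. The difference was 5.20 ± 0.39 on the log2 scale (edgeR quasi-likelihood, Benjamini-Hochberg adjusted p = 2.93e-08). This p rests on 2 sections per treatment and on variance estimates shared across genes, so it does not measure the spread between mice alone. An exact permutation test of 2 against 2 sections cannot give a two-sided p below 0.333. No section was left out of this fit. Of the 11299 genes tested, 0.894% had a higher and 0.301% a lower change in epithelium-rich spots, and the adjusted p of the other members tested was 0.58 or more. The fit kept the section as a block, and 0.490% to 1.27% of epithelium-rich spots also lay in the stromal cluster.

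By spot cluster, Ccl6 was unevenly spread in the DES sections. DES A cluster 8 held it at 1301 CPM [1221 to 1386], which was 49.8% of the section's Ccl6 UMIs in 3.87% of its spots. The same 61 spots held 55.1% of the Ccl3 UMIs (65.3 CPM), 50.6% of the Ccl4 UMIs (58.6 CPM) and 38.2% of the Ccl2 UMIs (34.6 CPM). Lyz2 stood at 6895 CPM, C1qa at 434 CPM, Olfm4 at 2438 CPM and Epcam at 492 CPM there. DES B cluster 2, with 228 spots or 16.8% of the section, held 53.7% of its section's Ccl6 UMIs at 450 CPM, with Lyz2 at 894 CPM, Olfm4 at 1312 CPM and Epcam at 566 CPM, but Ccl3 and Ccl4 were only 6.41 and 7.37 CPM. The highest CO value of Ccl6 was 183 CPM, in the stromal cluster 6 of CO B.

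**Figure D5:**
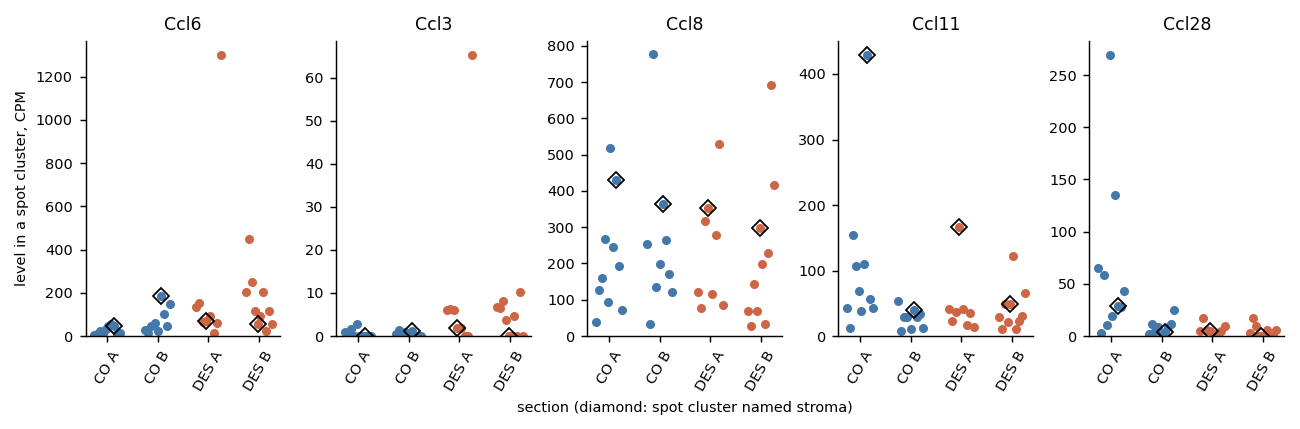
CPM of Ccl6, Ccl3, Ccl8, Ccl11 and Ccl28 in each spot cluster of at least 20 spots, by section, with a diamond around the cluster named stroma. The highest points are DES A cluster 8 for Ccl6 (1301 CPM) and Ccl3 (65.3 CPM), CO B cluster 3 for Ccl8 (777 CPM), and CO A for Ccl11 (stromal cluster, 430 CPM) and Ccl28 (cluster 5, 269 CPM).

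The remaining members had their own places. Ccl28 and Ccl20 were highest in CO A cluster 5, at 269 and 28.8 CPM, with 36.5% and 82.1% of the section's UMIs in 9.77% of its spots. The study found glandular epithelium present in that cluster, although a spot covers several cells. In single cells, by contrast, Ccl28 was lowest in a developing gland cluster, CO cluster 8, at 11.85 CPM. It was highest outside the gland clusters, in CO cluster 11, at 219.5 CPM. The spots therefore do not show which epithelial cells carried Ccl28. No cluster of at least 20 spots passed 24.6 CPM of Ccl28 in the other sections. Ccl11 and Ccl7 were highest in the stromal clusters of CO A and DES A. Ccl8 was highest in other clusters, at 519 CPM in CO A cluster 6, 777 CPM in CO B cluster 3 and 692 CPM in DES B cluster 9. Ccl5 was highest at 61.8 CPM in CO B cluster 6 and 55.0 CPM in DES A cluster 7.

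Cells without a deposited cell type, more than those with one in the CO library, held 9 members at 5 CPM or more. Of these, 4 were at least 2-fold higher in DES and 4 at least 2-fold lower, against 5.3% and 5.65% of 10694 genes. Those higher were Ccl3, Ccl4, Ccl5 and Ccl6, and those lower Ccl7, Ccl8, Ccl11 and Ccl28.

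Receptors for these ligands were found mainly on leukocytes. Ccr2 was 283 CPM in CO and 441 CPM in DES Lymphocytes and 131 CPM in CO Myeloid but 3.92 CPM in DES Myeloid cells. Ccr1, the receptor of Ccl6, was 45.8 and 101 CPM in Lymphocytes, 39.0 and 7.85 CPM in Myeloid cells and 19.3 CPM in DES-Myeloid-Lyz2hi cells. Ccr10, the receptor of Ccl28, was 40.5 CPM in CO and 4.03 CPM in DES Lymphocytes, where plasma cell markers were also lower. Whole sections ran the other way for both. Ccr10 was 0 and 0.453 CPM in CO and 1.645 and 3.138 CPM in DES there (edgeR adjusted p = 0.167). Plasma cell markers summed to 385 and 1022 CPM in the CO and 4231 and 7141 CPM in the DES sections. Ccrl2, an atypical receptor that does not signal for migration, was 693 CPM in CO and 2097 CPM in DES Myeloid cells, and Ackr4, a scavenger of CC chemokines, was 25.5 CPM in CO Stromal cells.

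No gene of the receptor or further ligand lists passed edgeR's adjusted threshold in the sections. In whole sections 5 of 10 CC receptors, 3 of 4 atypical receptors and 8 of 11 other CC ligands could be tested, and 1, 1 and 2 had an unadjusted p under 0.05, while DESeq2 called 0, 1 and 1. In stromal spots 2, 0 and 5 could be tested, with 0, 0 and 2 under that unadjusted p and 0 called by DESeq2. In epithelium-rich spots 2, 0 and 3 could be tested, with 1, 0 and 2 under it, and DESeq2 called 0, 0 and 2. Median log2 fold changes in whole sections were 1.23 for the receptors, -0.08 for the atypical receptors and 0.74 for the other ligands, beside -0.01 over all genes and -0.26 over the 10 members.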

How the data were processed

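Single cells and spatial spots of mouse uterus were analysed from the counts that the authors deposited, which are UMI counts per gene made with Cell Ranger 3.0.1 and Space Ranger 1.2.2 after bcl2fastq 2.20.0.422 on mm10, per the submitters' processing notes. Cell types and clusters were the authors' own; 350 annotated cells without counts were left out. Doublets were called and removed in the authors' analysis. The deposited cells were not filtered again, and a quality mark deposited for each cell was not applied. Whether cells without a deposited type include cells that the authors set aside was not examined. The members and gene lists were chosen with earlier results of these data known.

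Single-cell counts were summed per library and class, and levels carry exact Poisson 95% intervals. With 1 library per condition no test was made, and a difference was read past 2-fold among genes at 5 CPM or more. Shares used cells thinned to 3000 UMIs, with exact Clopper-Pearson intervals. A count of 0 was bounded by 3 UMIs. The genes named were all members, some of the 3 genes most like a member, the receptor and ligand lists at 20 CPM or more and the called cell markers. The genes named within Ccl6-bearing cells were chosen after their values were seen.

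Spot counts were summed per section and tested by edgeR 4.0.16 (quasi-likelihood, TMM, low counts filtered, R 4.3.3) with Benjamini-Hochberg adjustment at 0.05; DESeq2 1.42.0 was an alternative. Epithelium-rich spots were ranked by summed CPM of epithelial markers. Alternatives were the filter, a replicate block, other spot sets and each section left out, and in single cells other totals, cell filters, folds and thinning. Tested on simulated data, the fit recovered 92 of 100 genes changed 4-fold and 11 of 100 changed 2-fold among 14098 genes of whole sections, 73 and 2 among 8914 of stromal spots, and 93 and 15 among 11161 of epithelium-rich spots. The changed genes were drawn from those above the median level, so the recovery of genes at lower levels was not measured. Promoters came from RefSeq. Values of 1 gene of the receptor list are not reported here.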

Additional observations from a re-analysis of the deposited data

Results flagged for a closer look

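Ccl6 was marked because its DES change differed between the spot sets, by 5.20 on the log2 scale between epithelium-rich and stromal spots in the edgeR test of that difference (Benjamini-Hochberg adjusted p = 2.93e-08). This p rests on 2 sections per treatment and on variance estimates shared across genes.

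Cells that carry no deposited cell type, 20134 in CO and 6611 in DES, were outside the comparisons by cell type, and these members stood higher in the DES ones than in the CO ones. Ccl6 was 8.84 CPM in CO and 82.1 CPM in DES, a ratio of 9.29 [8.74 to 9.88]. Ccl3 was 3.87 and 29.2 CPM, a ratio of 7.53 [6.85 to 8.29]. Ccl4 was 12.8 and 85.1 CPM, a ratio of 6.62 [6.28 to 6.99], and Ccl5 12.2 and 47.3 CPM, a ratio of 3.88 [3.65 to 4.13]. Of the leukocyte markers, summed macrophage markers were 61.3 CPM in CO and 372 CPM in DES, neutrophil markers 69.4 and 291 CPM, NK markers 13.96 and 41.5 CPM and T cell markers 7.26 and 24.9 CPM, whereas B cell markers were 13.8 and 14.8 CPM and plasma cell markers 434 and 109 CPM. Monocyte markers were 824 and 927 CPM, and basal cell markers 3.82 and 349 CPM. The part of these markers was not tested. Ccl11 was at 55.2 CPM in CO and 0 UMIs in DES, at least 779-fold lower with 3 UMIs set in DES. Stromal markers (7078 and 4024 CPM), pericyte markers (19.5 and 8.79 CPM), endothelial markers (40.1 and 2.41 CPM) and mesothelial markers (739 and 477 CPM) were also lower in DES, and their part was not tested. The intervals cover counting error only, and the deposited quality mark of each cell was not applied.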

How the results depend on the processing

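Counts of genes past the threshold depended on the sections. Whole sections gave 747 genes, and 1791 with DESeq2 and 3 to 2819 with 1 section left out (2819 without CO A, 2336 without CO B, 14 without DES A and 3 without DES B). Stromal spots gave 131 genes, 645 with no filter, 453 with the replicate block, 57 with stromal spots chosen by marker score and 40 (without DES A) to 357 (without CO A) with 1 section left out, and 86 without DES B. Epithelium-rich spots gave 872, and 18 (without DES B) to 2181 (without CO B) with 1 left out, 119 without DES A and 2159 without CO A. The cause was not tested.

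Members called in whole sections numbered 2, then 1 with no filter, 1 with the replicate block (527 genes in all; Ccl3 2.91, edgeR adjusted p = 0.0542) and 0 to 3 with 1 section left out. In stromal spots they were 0, then 1 with no filter and 0 to 2 with 1 left out. In epithelium-rich spots they were 1, then 2 with the block (964 genes in all; it added Ccl28 at -1.97, edgeR adjusted p = 0.0380) and 0 to 3 with 1 left out. Deviations of same-letter sections correlated at -0.03, 0.09 and 0.04 in whole sections, stromal and epithelium-rich spots. Such correlations cannot show what sections share. The labels give no pairing by letter, and the study captured all sections on the same slide. The block was therefore kept as an alternative only.

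Directions turned with 1 section left out, and the log2 fold changes then spanned these ranges. In whole sections they ran from -0.75 (without CO A) to 0.25 (without CO B) for Ccl5, -0.93 (without DES A) to 0.98 (without CO A; 0.26 without DES B) for Ccl7, -1.44 to 0.39 for Ccl11, -2.10 to 2.88 for Ccl20 and -3.20 to 0.04 for Ccl28, the last 3 without CO B and without CO A. In stromal spots they ran from -1.62 (without CO A) to 0.35 (without CO B) for Ccl6, -1.43 (without CO B) to 1.46 (without CO A) for Ccl7 and -2.19 (without DES A) to 1.43 (without CO A) for Ccl11. In epithelium-rich spots they ran from -0.32 (without DES A) to 0.19 (without DES B; 0.05 without CO A) for Ccl8 and -1.95 (without CO B) to 1.03 (without CO A) for Ccl11.

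In single cells, 11 member and cell type pairs passed 2-fold over the 4 named types and 17 passed 1.5-fold. Without the cell of each library with most UMIs of a member, an alternative added after the data were seen, 11 passed. Ccl6 in Myeloid cells and Ccl7 in Lymphocytes (64.6 and 12.9 CPM, 5.03-fold higher in CO) then passed, Ccl11 in Lymphocytes did not, and Ccl8 there was left at or under 3 UMIs. The Ccl6 ratio of DES cluster 5 was 84.9 by mean per cell and 69.95 to 76.61 under the other settings. The highest spot cluster kept its place in 40 of 40 member and section pairs.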

Other observations

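Wfdc18, which stood beside Ccl6 in DES epithelial cluster 5, was also high in the DES sections. In epithelium-rich spots it was 9.47 and 9.84 CPM in CO and 320 and 216 CPM in DES (sections A and B), and Tff1 was 0, 3.28, 504 and 1992 CPM. In DES A cluster 8 Wfdc18 was 643 CPM and in DES B cluster 2 it was 117 CPM. Rad51b was 131, 94.4, 205 and 392 CPM in the epithelium-rich spots. These genes were chosen after their single-cell values were seen, and no test was made.

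Ccl4 and Ccl3 stood lower relative to C1qa in whole tissue sections than in dissociated cells named Myeloid. The 2 sources differ in method, and the sections hold all cell types. Per 100 UMIs of C1qa, Ccl4 was 88.6 in CO and 64.3 in DES Myeloid cells and 1.72, 1.62, 2.55 and 2.02 in sections CO A, CO B, DES A and DES B. Ccl3 was 22.7 and 20.7 in cells and 0.594, 0.406, 2.61 and 2.02 in sections. Ccl2 was also lower in sections, but Ccl6 and Ccl8 were higher. Ccl6 was 9.85 and 2.63 in cells and 12.95, 19.5, 57.4 and 94.5 in sections. For Ccl8 the values were 21.8 and 0.53 in cells and 107, 87.6, 41.3 and 32.0 in sections. Adgre1, a macrophage surface gene, was 9.17 and 5.05 in cells and 5.41, 10.3, 5.83 and 5.78 in sections. Other macrophage genes moved either way: Cx3cr1 was 8.42 and 6.30 in cells and 2.08, 2.19, 3.95 and 2.89 in sections, and Csf1r 7.41 and 5.77 in cells and 16.4, 19.0, 21.4 and 18.2 in sections.

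Among CC ligands that are no members, Ccl17 was 0.160, 0.816, 29.9 and 7.69 CPM in whole sections (edgeR adjusted p = 0.0587), Ccl9 8.0, 21.1, 42.1 and 25.7 CPM, and Ccl21a 91.2, 98.2, 262 and 133 CPM. Ccl21a was carried by CO Endothelial cells at 1881 CPM, and its near-identical gene copies can share reads. Ccl12, a close relative of Ccl2, was 482 CPM in CO and 192 CPM in DES Myeloid cells.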
